A study of Mus musculus with 14 samples.

Results

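The genes described here encode precursors of the cornified envelope and their neighbours in the epidermal differentiation complex. They were all rows of the time-course table whose symbol begins with Sprr or with Lce and a digit, together with *Ivl*, *Lor*, *Flg*, *Flg2*, *Hrnr*, *Rptn*, *Tchh*, *Tchhl1*, *Crct1* and *Crnn*. The rule found 48 genes among the 54332 of the table. They comprised 2 SPRR1, 13 SPRR2, 1 SPRR3 and 1 SPRR4 gene, 14 LCE1, 6 LCE3 and 1 LCE6 gene, 7 genes of S100 fused-type proteins, and *Ivl*, *Lor* and *Crct1*. All 48 lay on mouse chromosome 3, between 92080271 (*Lor*) and 93471980 (*Tchhl1*) in GENCODE M21 on GRCm38, and no member came from elsewhere in the genome.

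The cornified envelope is the crosslinked protein shell that replaces the plasma membrane of the outermost keratinocytes. Involucrin (*Ivl*) is laid down early as a scaffold, loricrin (*Lor*), small proline-rich (SPRR) and late cornified envelope (LCE) proteins are added by transglutaminases, and filaggrin (*Flg*) bundles the keratin filaments inside the cell. In resting skin most of these genes are transcribed in the suprabasal layers, and several SPRR2 and LCE3 genes are best known from wounded or inflamed epidermis. Basal epidermal stem cells (EpdSCs) are the cells that give rise to those layers.

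RNA-seq was made from EpdSCs of back skin, with 2 biological replicates at each of 5 timepoints: D0 (P21), W1 (P28), W2 (P35) and W6 (P63) of doxycycline (DOX), and W12. All groups were CD1 mice labelled male and carried both K14rtTA and TRE-myc-Sox9, in which an rtTA driven by the *Krt14* promoter switches on MYC-tagged *Sox9* when DOX is given. D0 cells carried both transgenes before DOX, and no DOX-treated mice without the *Sox9* transgene were analysed here. The cells were sorted as CD49f-high, Ly6A-high and CD34-negative, and negative for CD31, CD45, CD117 and CD140a. For W12, newborn skin had been grafted onto Nude female hosts, which were given DOX after healing, whereas the others came from skin that was not grafted, so grafting and 12 weeks of induction cannot be told apart. From D0 to W6, the mice were older the longer they had received DOX. Values are TPM, a transcript abundance per length that is scaled to a sum of 1000000 in each library, so the depth behind each value is unknown.

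MYC-SOX9 was at 45.6 and 89.6 TPM at D0 and between 606 and 3414 TPM in the 8 later libraries. Basal markers were high in every library, with *Krt14* between 19997 and 37666 TPM, although *Krt5*, *Itgb4* and *Col17a1* were called lower at W12 than at D0. Of the 5 basal markers tested, 4 were already called lower and 0 higher at W6, where 14.1% of all genes tested were lower and 18.3% higher. D0 replicate 2 went against its male label, with 4.61 TPM of *Xist* and 0.0278 TPM of *Ddx3y*, a Y-linked gene, while *Ddx3y* was between 11.0 and 32.7 TPM in the other libraries. Both W12 libraries held *Xist* (5.51 and 3.50 TPM) beside *Ddx3y*. The summed level of the 3 endothelial markers *Pecam1*, *Cdh5* and *Kdr* was 28.9 and 66.8 TPM at W12 and at most 1.35 TPM in the other libraries. That of 4 leukocyte markers was 102 and 125 TPM at W12, nearly all of it *Cd74*, with *Ptprc* at most 0.327 TPM there, against 2.79 to 26.9 TPM elsewhere. The 4 fibroblast markers summed to at most 2.34 TPM in any library, and the 5 inner root sheath keratins to between 2.24 and 9.78 TPM.

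All 48 genes were listed above 0 in at least 1 library, and 18 of them in all 10. In the D0 libraries 10 and 12 of the 48 reached 1 TPM, in the W1 libraries 12 and 14, and in the W2 libraries 15 and 21. In W6 replicates 1 and 2 the number was 32 and 20, and in the W12 libraries 32 and 30. The summed level of all 48 genes was 158 and 121 TPM at D0, 230.2 and 329.6 TPM at W1, 441 and 484 TPM at W2, 1611 and 672 TPM at W6, and 7726 and 7280 TPM at W12. The 2 replicates did not overlap with those of the next timepoint at any step. The lowest sum at W12 was above the highest at W6, and all libraries after DOX were above both D0 libraries. Of the 48 genes, 28 had their highest mean at W12, 9 at W6, 8 at W2, 2 at W1 and 1 at D0.

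**Figure D1:**
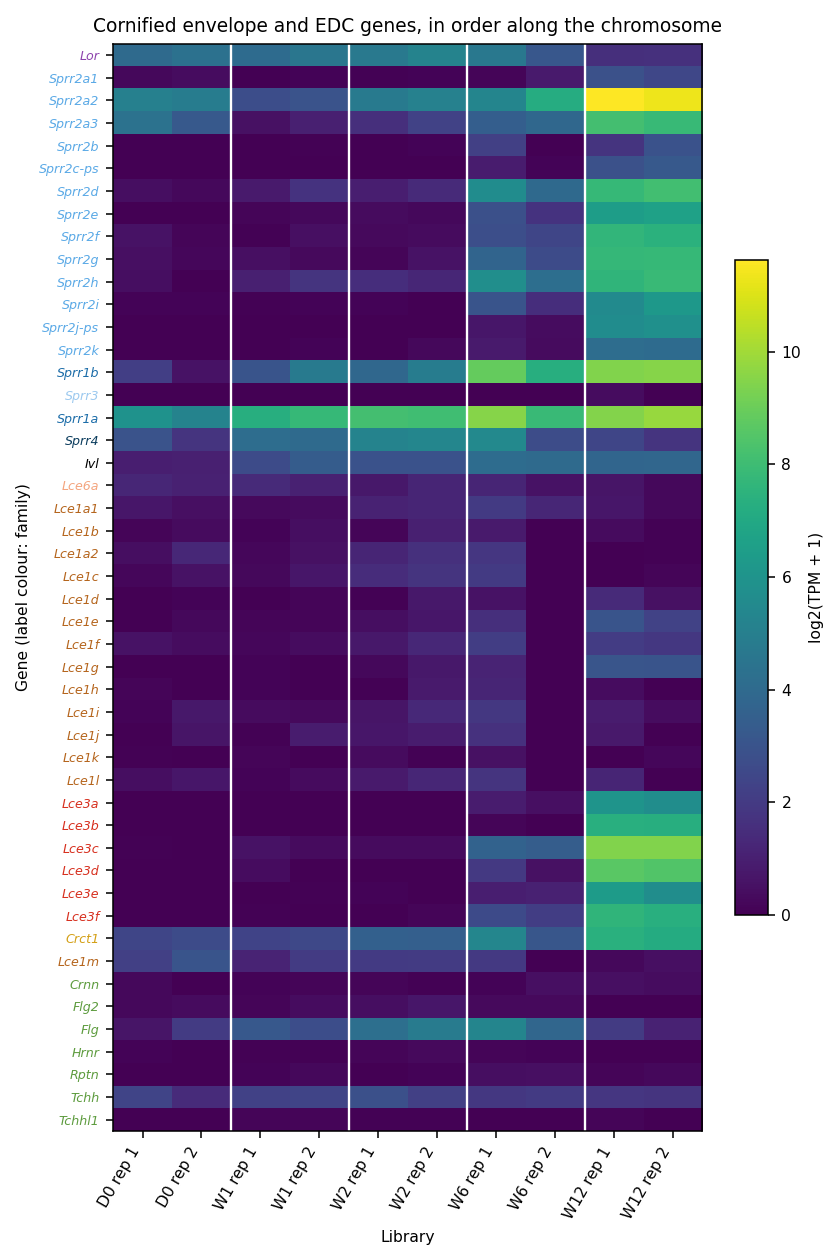
Heat map of log2(TPM + 1) for the 48 genes (rows, in their order along the chromosome, label colour by family) in the 10 libraries (columns, 2 replicates per timepoint). The SPRR2 and LCE3 blocks are dark at D0, W1 and W2 apart from *Sprr2a2* and *Sprr2a3*, and bright in both W12 libraries, while *Lor*, *Sprr4*, *Flg* and *Lce1m* are dimmer at W12 than at W2.

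The test took genes whose TPM averaged 1 or more across the 10 libraries, which left 31 of the 48 and 13110 genes in all. limma was fitted on log2(TPM + 1) over all libraries, with Benjamini-Hochberg adjustment over all 13110 genes. Changes of genes at low TPM come out too small on this scale. Only 19 of the 31 had a mean of at least 1 TPM without the W12 libraries. The other 12 passed through W12 alone and so were taken for high values there, and the counts over the 31 genes are a description. Of the 19, 13 averaged at least 1 TPM over the D0, W1 and W2 libraries alone. The other 6, *Sprr2e*, *Sprr2f*, *Sprr2g*, *Sprr2i*, *Lce3c* and *Lce3f*, passed through W6 and W12, and their differences of W6 and W12 from the earlier timepoints are given as values with no test. In bulk RNA, fewer cells of a type and less RNA per cell cannot be told apart.

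At W1, 2 of the 31 genes were higher than at D0 (background 5.79% of all genes tested) and 2 were lower (background 4.1%). The 2 that rose were *Ivl* and *Sprr1a*, and the 2 that fell were *Sprr2a2* and *Sprr2a3*. At W2, 5 were higher (background 9.06%), *Ivl*, *Sprr1a*, *Sprr1b*, *Flg* and *Sprr4*, and 1 was lower (background 6.64%), *Sprr2a3*. At W6, 15 were higher (background 18.3%) and 0 were lower (background 14.1%). At an unadjusted *P* under 0.05, 21 of the 31 differed from D0 at W6, where 5851 of all 13110 genes tested did. At W12, 25 were higher (background 17.9%) and 2, *Lor* and *Lce1m*, were lower (background 25.1%). The median log2 change of the 31 genes against D0 at W1, W2, W6 and W12 was 0.05, 0.12, 1.24 and 4.73, where the median of all genes tested was 0.09, 0.06, 0.08 and −0.08. These medians include 9 genes listed at 0 in both D0 libraries, for which the size of a change against D0 has no meaning. Among the 13 genes that passed on the D0, W1 and W2 libraries alone, 7 were higher and 0 lower than at D0 at W6, and 8 were higher and 2 lower at W12.

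The number of the 31 genes called, and of all genes called, changed at the early timepoints when single libraries were left out. Without D0 replicate 2, 2 of the 31 genes differed from D0 at W1 in place of 4, and the same number was found without W1 replicate 1, W1 replicate 2, W12 replicate 1 or W12 replicate 2. Over all genes tested the calls at W1 numbered 1296, and 1031, 609, 377, 970 and 969 in these settings. Without W6 replicate 1 or W6 replicate 2 they rose, to 6 of the 31 genes and to 1693 and 1696 of all genes. The W1 log2 change itself does not use the W2 or W12 libraries, and that of *Sprr1a* was 1.96 with or without them. At W2, leaving out W2 replicate 1 or W2 replicate 2 left 2 genes in place of 6, where the calls over all genes went from 2058 to 782 and 652. Leaving out D0 replicate 2, W12 replicate 1 or W12 replicate 2 left 4. At W6, without D0 replicate 2, 12 genes were higher and 0 lower, and the calls over all genes went from 4251 to 2356. Without W6 replicate 2, 24 were higher and 0 lower, and without W6 replicate 1, 14 were higher and 2 lower, while the calls over all genes numbered 3474 and 3860. At W12, 24 were higher and 1 lower without D0 replicate 2, and the calls over all genes went from 5642 to 3737. Without W12 replicate 1 or W12 replicate 2 the latter numbered 3362 and 3668.

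Between neighbouring timepoints, 0 of the 31 genes were called from W1 to W2 in limma (background 0.0458% higher and 0.0686% lower). At an unadjusted *P* under 0.05, 3 of the 31 differed at this step, where 1900 of all 13110 genes tested did. With only the 4 libraries of that step fitted, 2 of the 31 were called, and the calls over all genes went from 15 to 80. From W2 to W6, 12 rose (background 7.99%) and 0 fell (background 8.31%). Among the 13 genes that passed on the D0, W1 and W2 libraries, 5 rose. Without W2 replicate 1 or W2 replicate 2, 6 of the 31 genes rose, and the genes called higher over all 13110 went from 1048 to 104 and 149. Leaving out W6 replicate 1 took the median log2 change of the 31 genes at this step from 0.69 to 0.47. That of all genes tested went from 0.009 to 0.055. From W6 to W12, 21 rose (background 6.66%) and 2, *Lor* and *Flg*, fell (background 13.5%). Among the 19 genes that passed the filter without W12, 11 rose and 2 fell at this step. Over all timepoints, 29 of the 31 genes passed limma's moderated F test (background 57.5%), and *Tchh* and *Lce1f* did not.

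*Ivl*, the early scaffold gene of the envelope, was at 0.963 and 1.01 TPM at D0. It was at 5.33 and 9.32 TPM at W1, 6.72 and 6.58 TPM at W2, 16.4 and 15.3 TPM at W6, and 13.0 and 13.1 TPM at W12. Every library after DOX was above both D0 libraries, and the W6 and W12 libraries were above all earlier ones. The log2 change against D0 was 2.02 at W1 (standard error 0.23, adjusted *P* = 0.0014), 1.94 at W2 (adjusted *P* = 0.00126), 3.08 at W6 (adjusted *P* = 8.92e-05) and 2.82 at W12. The rise from W2 to W6 was 1.14 (adjusted *P* = 0.0174), a call lost without W2 replicate 1 (adjusted *P* = 0.114) or W2 replicate 2 (adjusted *P* = 0.106). The step from W6 to W12 did not pass the threshold (−0.26, adjusted *P* = 0.471). *Ivl* was the 1 member called at W2 under every alternative tried. With only the D0 and W1 libraries fitted, its adjusted *P* at W1 was 0.0503.

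*Sprr1a* and *Sprr1b* encode small proline-rich crosslinking proteins, and their transcripts shared no 31-base word with those of another gene. *Sprr1a* was already at 59.7 and 36.1 TPM at D0, the highest mean of the 48 genes there. It was at 155 and 219 TPM at W1, 281 and 269 TPM at W2, 732 and 239 TPM at W6, and 720.3 and 918 TPM at W12. Each timepoint was above D0 without overlap, but the W6 replicates were far apart, one below both W2 libraries and one within the range of W12. Its log2 change against D0 was 1.96 at W1 (standard error 0.46, adjusted *P* = 0.0308), 2.54 at W2, 3.14 at W6 (adjusted *P* = 0.0017) and 4.10 at W12 (adjusted *P* = 0.000287). The call at W1 was lost on leaving out D0 replicate 2 or any W1, W2 or W12 library, with adjusted *P* between 0.0535 and 0.209.

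*Sprr1b* started lower, at 3.53 and 0.502 TPM at D0. It was at 7.20 and 26.0 TPM at W1, 14.0 and 28.7 TPM at W2, 473 and 155 TPM at W6, and 694 and 741 TPM at W12. From W6 on, both libraries were above every earlier one. The log2 change against D0 was 3.02 at W2 (standard error 0.73, adjusted *P* = 0.0265), 6.70 at W6 (adjusted *P* = 0.000462) and 8.10 at W12 (adjusted *P* = 9.2e-05), and the step from W2 to W6 was 3.69 (adjusted *P* = 0.0158). This step was not called without W2 replicate 1 (adjusted *P* = 0.117) or W2 replicate 2 (adjusted *P* = 0.0543). The call at W2 was lost without D0 replicate 2 (adjusted *P* = 0.129), W2 replicate 1, W2 replicate 2 (adjusted *P* = 0.17) or either W12 library. By mean TPM, *Sprr1a* ranked 3084 among all genes of the table at D0 and 196 at W12, and *Sprr1b* 11215 and 231.

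The proximal promoters of *Ivl*, *Sprr1a* and *Sprr1b* are shown because these genes were higher than at D0 at W2, W6 and W12, and because each holds a match to the AP-1 motif TGANTCA. The sequences are the 130 bases before the RefSeq start on GRCm38.p6, in the direction of transcription, at chr3:92573736-92573865, chr3:92485882-92486011 and chr3:92438780-92438909, each on the minus strand. Capitals mark TGANTCA and TATAAA on either strand.
Ivl: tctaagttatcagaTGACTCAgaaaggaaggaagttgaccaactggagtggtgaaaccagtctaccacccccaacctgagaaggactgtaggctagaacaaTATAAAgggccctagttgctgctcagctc
Sprr1a: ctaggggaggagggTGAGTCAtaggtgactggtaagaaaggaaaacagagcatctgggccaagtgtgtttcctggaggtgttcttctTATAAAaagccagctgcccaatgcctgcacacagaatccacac
Sprr1b: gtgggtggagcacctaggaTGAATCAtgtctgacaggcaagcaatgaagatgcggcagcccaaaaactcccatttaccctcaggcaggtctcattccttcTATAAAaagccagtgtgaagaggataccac
The TGANTCA match begins 116 bases before the start in *Ivl* and 111 bases before it in *Sprr1b*, and the TATAAA match 29 and 30 bases before it. In *Sprr1a* the TATAAA match begins 43 bases before the start and the TGANTCA match 116 bases before it, with a further TGANTCA at 146 bases that lies outside the stretch shown.

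**Figure D2:**
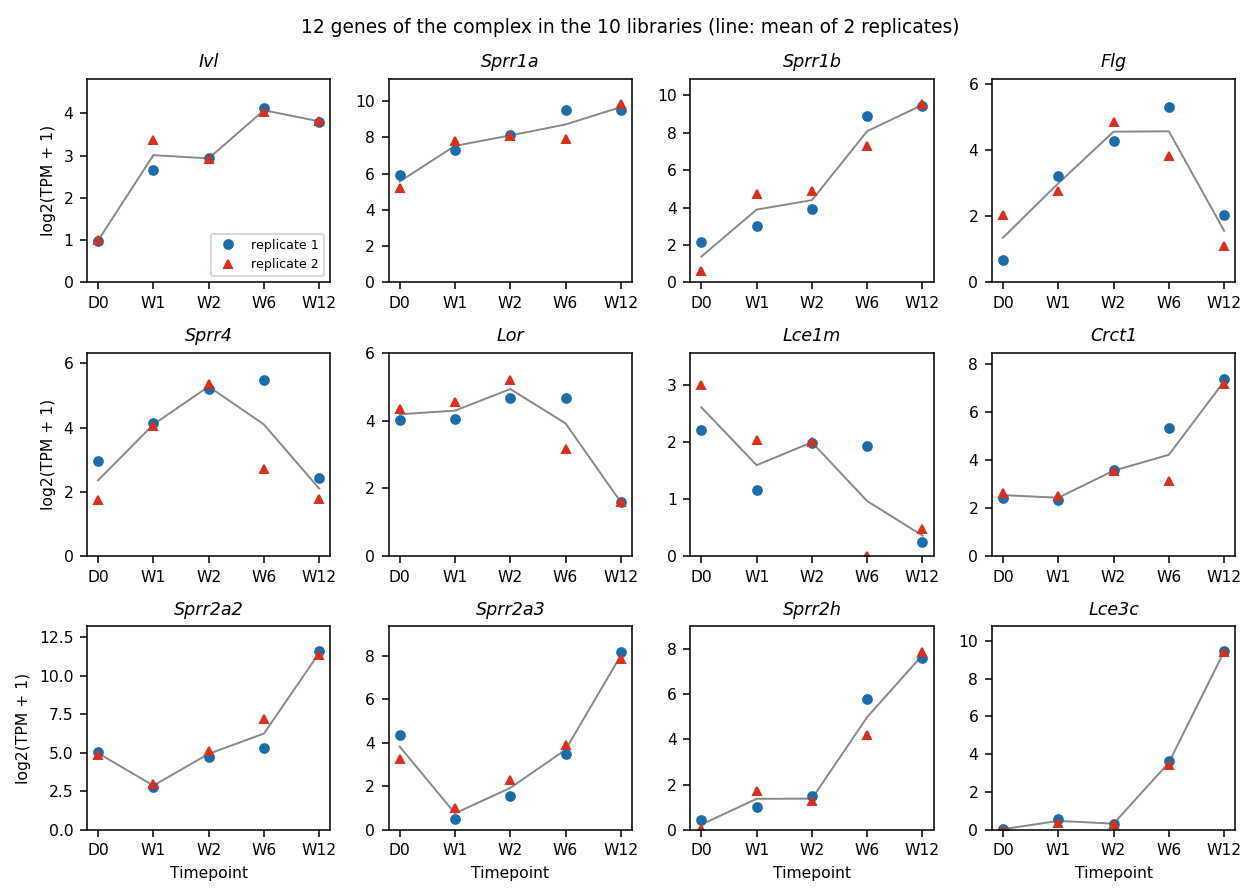
log2(TPM + 1) of 12 genes at the 5 timepoints, with circles for replicate 1, triangles for replicate 2 and a line through the means of the 2. *Sprr1a* and *Sprr1b* climb at each step, *Ivl* is higher at W1 and again at W6, *Flg* and *Sprr4* climb to W2 and are near their D0 level at W12, *Lor* and *Lce1m* are lowest at W12, *Sprr2a2* and *Sprr2a3* dip at W1, and *Sprr2h* and *Lce3c* climb at W6 and again at W12.

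*Flg*, the gene of profilaggrin, was at 0.591 and 3.10 TPM at D0, 8.30 and 5.82 TPM at W1, and 18.2 and 27.7 TPM at W2. It was at 38.7 and 13.1 TPM at W6 and at 3.06 and 1.15 TPM at W12. The W12 values lay within the range of D0, and both were below all W1, W2 and W6 values. The log2 change against D0 was 3.20 at W2 (standard error 0.58, adjusted *P* = 0.00815) and 3.21 at W6 (adjusted *P* = 0.00451), and from W6 to W12 it fell by 3.003 (adjusted *P* = 0.0102). The fall was lost without W12 replicate 2 (adjusted *P* = 0.07) or W6 replicate 1 (adjusted *P* = 0.053), and the rise at W2 without W2 replicate 2 (adjusted *P* = 0.069).

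*Sprr4*, a short SPRR gene next to *Ivl*, moved in a similar order. It was at 6.83 and 2.35 TPM at D0, 16.7 and 15.4 TPM at W1, 35.6 and 40.0 TPM at W2, 43.5 and 5.56 TPM at W6, and 4.39 and 2.41 TPM at W12. The W2 libraries were above all libraries of D0, W1 and W12, while the 2 W6 libraries lay on either side of them. Only the change at W2 passed the threshold (2.92, standard error 0.76, adjusted *P* = 0.0339), and it was lost without D0 replicate 2 and without either library of W1, W2 or W12, with adjusted *P* between 0.057 and 0.159. The W6 to W12 step was −1.99 (adjusted *P* = 0.0978).

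*Lor*, the gene of the most abundant envelope protein of normal epidermis, was at 15.4 and 19.4 TPM at D0, 15.6 and 22.4 TPM at W1 and 24.7 and 35.7 TPM at W2. It was at 24.4 and 8.07 TPM at W6 and at 2.00 and 2.05 TPM at W12. Both W12 values were below those of every other library. *Lor* fell by 2.60 on the log2 scale from D0 to W12 (standard error 0.43, adjusted *P* = 0.0019) and by 2.33 from W6 to W12 (adjusted *P* = 0.00827). The W6 to W12 fall was lost without W12 replicate 1 (adjusted *P* = 0.0646), whereas the fall from D0 was called under every alternative. Its mean was 8.60-fold lower at W12 than at D0, while that of *Ivl* was 13.2-fold higher.

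Among the other S100 fused-type genes, *Tchh*, the gene of trichohyalin of the hair follicle inner root sheath and medulla, was between 1.68 and 6.20 TPM in the 10 libraries, and it did not pass the F test (adjusted *P* = 0.274). *Flg2*, *Hrnr*, *Rptn*, *Crnn* and *Tchhl1* stayed under 1 TPM in every library. *Flg2* was listed at 0 in both W12 libraries and was at 0.119 to 0.619 TPM in the 8 others. *Rptn* was highest in the W6 libraries, at 0.353 and 0.411 TPM. *Crnn*, a gene of oesophageal epithelium, was at most 0.400 TPM.

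The 13 SPRR2 genes went from a summed 54.4 and 38.0 TPM at D0 to 4506 and 3990.0 TPM at W12. All 13 were tested, and all 13 had their highest mean at W12. *Sprr2a1*, *Sprr2b*, *Sprr2c-ps*, *Sprr2j-ps* and *Sprr2k* reached the filter through W12 alone and so were taken for high values there, and their W12 values are given as a description. *Sprr2e*, *Sprr2f*, *Sprr2g* and *Sprr2i* passed it through W6 and W12. The other 4, *Sprr2a2*, *Sprr2a3*, *Sprr2d* and *Sprr2h*, were called higher at W12 than at D0. At W1 the sum was 8.70 and 13.6 TPM, below both D0 libraries, and at W2 it was 31.2 and 42.2 TPM. At W6 it was 189 and 208 TPM. At D0, W1 and W2, most of this was *Sprr2a2* and *Sprr2a3*.

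*Sprr2a1*, *Sprr2a2* and *Sprr2a3* are near-identical copies. Of the 31-base words of their transcripts, 96.9%, 97.8% and 73.4% occurred in another member, so the split of reads between them is uncertain. Their sum was 52.7 and 37.4 TPM at D0, 6.25 and 7.97 TPM at W1, 27.7 and 38.0 TPM at W2, 48.5 and 161 TPM at W6, and 3467 and 2829.9 TPM at W12. The sum was thus lowest at W1 in both replicates, and the W2 values lay on either side of the lower D0 value. As listed, *Sprr2a2* was at 32.8 and 28.5 TPM at D0, 5.81 and 6.90 TPM at W1, and 3174 and 2596 TPM at W12, where it ranked 36 among all genes of the table.

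*Sprr2a3* fell by 3.07 on the log2 scale from D0 to W1 (standard error 0.39, adjusted *P* = 0.00223) and by 1.90 to W2 (adjusted *P* = 0.0135). *Sprr2a2* fell by 2.11 to W1 (standard error 0.49, adjusted *P* = 0.03), a call that was lost on leaving out any D0, W1 or W12 library (adjusted *P* between 0.0627 and 0.14). The fall of *Sprr2a3* at W2 was lost without W2 replicate 1 (adjusted *P* = 0.1). At W12 the log2 change against D0 was 6.51 for *Sprr2a2*, 4.19 for *Sprr2a3* and 2.36 for *Sprr2a1*. These 3 genes did not pass the threshold at W6, when *Sprr2a2* was at 38.3 and 147 TPM. They were the SPRR2 genes whose value was higher in W6 replicate 2 than in W6 replicate 1.

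The other 10 SPRR2 genes, whose transcripts shared between 0.824% and 31.9% of their 31-base words with other members, were low before W6. Their sum was 1.67 and 0.560 TPM at D0, 2.45 and 5.61 TPM at W1, 3.55 and 4.19 TPM at W2, 141 and 46.5 TPM at W6, and 1039 and 1160.1 TPM at W12. Of these, *Sprr2d* and *Sprr2h* passed the filter on the D0, W1 and W2 libraries, and both were called higher at W6 and at W12. *Sprr2h* was at 0.342 and 0.0296 TPM at D0, 1.01 and 2.33 TPM at W1, 1.83 and 1.39 TPM at W2, 53.5 and 17.5 TPM at W6, and 192 and 232 TPM at W12. Its W6 libraries were above all earlier ones and below both W12 libraries, and the same held for *Sprr2d*, *Sprr2e*, *Sprr2f*, *Sprr2g* and *Sprr2i*.

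The log2 change of *Sprr2h* against D0 was 4.76 at W6 (standard error 0.46, adjusted *P* = 0.000249) and 7.49 at W12 (adjusted *P* = 1.53e-05). *Sprr2d* was at 0.365 and 0.206 TPM at D0, 50.2 and 14.7 TPM at W6, and 224 and 275 TPM at W12. Its changes were 4.46 at W6 (adjusted *P* = 0.000511) and 7.60 at W12. *Sprr2f* was at 0.462 and 0.112 TPM at D0, 5.87 and 4.33 TPM at W6 and 199 and 172 TPM at W12, and *Sprr2g* at 0.372 and 0.141 TPM, 12.3 and 5.25 TPM and 214 and 222 TPM. From W6 to W12, *Sprr2f* rose by 4.94 and *Sprr2g* by 4.59, where *Sprr2h* rose by 2.74 and *Sprr2d* by 3.14. *Sprr2h* and *Sprr2d* were the higher ones at W6, and the 4 genes lay between 172 and 275 TPM at W12.

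*Sprr2e* was at 0.0296 TPM and 0 at D0, 6.09 and 2.24 TPM at W6 and 88.6 and 99.7 TPM at W12, and *Sprr2i* at 0.0955 and 0.0720 TPM, 7.14 and 1.87 TPM and 46.0 and 72.7 TPM. Their W6 values were 2.24 and 2.16 above D0 on the log2 scale, given with no test because both genes passed the filter through W6 and W12. *Sprr2b*, *Sprr2k*, *Sprr2c-ps* and *Sprr2j-ps* were listed at 0 in both D0 libraries, so no size of change against D0 is given. The annotation calls *Sprr2c-ps* a processed pseudogene, *Sprr2j-ps* protein coding and *Sprr2g* a polymorphic pseudogene. *Sprr2j-ps* was at 0.627 and 0.291 TPM at W6 and 50.1 and 55.6 TPM at W12. *Sprr2k* was at 0.789 and 0.253 TPM at W6 and 16.6 and 16.0 TPM at W12 and *Sprr2c-ps* at 0.862 and 0.0886 TPM and 6.49 and 8.50 TPM. *Sprr2b* was at 3.55 TPM and 0 at W6 and 2.37 and 6.59 TPM at W12. Its W6 and W12 values overlapped.

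From W6 to W12, all 8 SPRR2 genes that passed the filter without W12 were called higher, with log2 changes between 2.74 (*Sprr2h*) and 5.24 (*Sprr2a2*). For the other 5 the difference was between 1.25 (*Sprr2b*) and 5.21 (*Sprr2j-ps*). The 200 bases before the start of 3 of the SPRR2 genes that were higher at W6 and again at W12 show what these promoters share. They lie at chr3:92338940-92339139, chr3:92364987-92365186 and chr3:92385485-92385684 on the plus strand of GRCm38.p6 (RefSeq), with TGANTCA and TATAAA in capitals.
Sprr2d: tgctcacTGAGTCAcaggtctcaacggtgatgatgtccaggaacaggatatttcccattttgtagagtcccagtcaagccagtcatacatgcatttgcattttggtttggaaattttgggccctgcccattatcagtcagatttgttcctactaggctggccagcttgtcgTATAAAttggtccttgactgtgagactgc
Sprr2f: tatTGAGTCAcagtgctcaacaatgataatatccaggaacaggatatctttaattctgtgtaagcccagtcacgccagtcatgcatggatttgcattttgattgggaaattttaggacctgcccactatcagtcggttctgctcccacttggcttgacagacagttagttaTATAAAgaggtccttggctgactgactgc
Sprr2h: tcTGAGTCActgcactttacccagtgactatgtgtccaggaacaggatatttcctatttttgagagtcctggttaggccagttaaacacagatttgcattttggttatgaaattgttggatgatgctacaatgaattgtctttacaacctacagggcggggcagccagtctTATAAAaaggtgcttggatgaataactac
The TGANTCA match begins 193, 197 and 198 bases before the start, and the TATAAA match 29 bases before it in all 3. Of the 10 SPRR2 genes with a RefSeq promoter, 7 held TGANTCA and 7 TATAAA, and those of *Sprr2a1*, *Sprr2a2* and *Sprr2a3* held neither in the window given. The 200 bases before the start of *Sprr2a1* and *Sprr2a2* were identical, and those of *Sprr2a3* held the same letters over most of their length. These are therefore not separate observations. The RefSeq window of *Sprr2a2* (chr3:92250397-92250696) does not lie at its GENCODE gene start (92215920).

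The 6 LCE3 genes, which encode late envelope proteins, were almost silent before W6. Their summed level was 0.0452 TPM and 0 at D0, 0.876 and 0.331 TPM at W1, 0.343 and 0.370 TPM at W2, 21.6 and 15.2 TPM at W6, and 1591 and 1452 TPM at W12. Both W6 libraries were above all earlier ones, and both W12 libraries were far above W6. The log2 change from W6 to W12 was between 5.01 (*Lce3e*) and 7.31 (*Lce3d*). *Lce3a*, *Lce3b*, *Lce3d* and *Lce3e* reached the filter through W12 alone and so were taken for high values there, and their differences at W12 are a description. *Lce3c* and *Lce3f* passed it through W6 and W12, and both were called higher at W12 than at W6 under every alternative. The change of *Lce3f* from W6 to W12 was 5.11 (adjusted *P* = 7.44e-06).

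*Lce3c* was the highest of the 6 at W6 and W12. It was at 0.0452 TPM and 0 at D0, 0.496 and 0.285 TPM at W1, 0.248 and 0.257 TPM at W2, 11.6 and 9.95 TPM at W6, and 691 and 684 TPM at W12. By mean it ranked 242 in the table at W12. On the log2 scale it was 3.52 above D0 at W6 and 9.40 above at W12, with no test because the gene passed the filter through these timepoints. The step from W6 to W12 was 5.88 (adjusted *P* = 1.37e-06).

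The other 5 were listed at 0 in both D0 libraries. *Lce3d* was at 2.86 and 0.440 TPM at W6 and 397 and 350.0 TPM at W12, and *Lce3f* at 5.16 and 3.32 TPM and 196 and 159 TPM. *Lce3b* was at 0.115 TPM and 0 at W6 and 162 and 157 TPM at W12. *Lce3a* and *Lce3e* were at 0.383 to 1.10 TPM at W6 and at 50.9 to 81.4 TPM at W12. *Lce3a*, *Lce3b*, *Lce3d* and *Lce3e* entered the test through W12 alone, so their W6 values are set beside D0 with no test. Both W6 libraries of *Lce3a*, *Lce3d* and *Lce3e* were above both D0 libraries, and for *Lce3b* W6 replicate 1 alone was. The log2 difference of *Lce3d* between W6 and D0 went from 1.24 to 0.53 without W6 replicate 1. Between 26.7% and 60.3% of the 31-base words of the LCE3 transcripts occurred in other members, mostly other LCE3 genes, so the split among the 6 is less certain than their sum.

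The 130 bases before the start of *Lce3c*, *Lce3d* and *Lce3b* are shown with those of *Lce1e* and *Lce1g*, the 2 LCE1 genes with the highest TPM at W12, because the families differ in these letters. *Lce3b*, *Lce3c* and *Lce3d* are on the plus strand at chr3:92932849-92932978, chr3:92944356-92944485 and chr3:92957260-92957389, and *Lce1e* and *Lce1g* on the minus strand at chr3:92709075-92709204 and chr3:92752339-92752468 (GRCm38.p6, RefSeq). Capitals mark GATAAAA and AATAAAA, which were searched for after these sequences had been seen.
Lce3b: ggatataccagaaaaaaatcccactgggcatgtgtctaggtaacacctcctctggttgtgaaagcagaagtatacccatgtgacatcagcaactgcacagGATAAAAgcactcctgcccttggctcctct
Lce3c: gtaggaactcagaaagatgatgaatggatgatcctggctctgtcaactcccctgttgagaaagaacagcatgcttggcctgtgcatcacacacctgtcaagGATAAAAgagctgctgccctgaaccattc
Lce3d: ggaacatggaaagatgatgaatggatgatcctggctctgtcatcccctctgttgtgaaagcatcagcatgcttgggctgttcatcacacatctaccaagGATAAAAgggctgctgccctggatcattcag
Lce1e: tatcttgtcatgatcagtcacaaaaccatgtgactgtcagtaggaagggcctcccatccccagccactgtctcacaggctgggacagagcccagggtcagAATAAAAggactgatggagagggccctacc
Lce1g: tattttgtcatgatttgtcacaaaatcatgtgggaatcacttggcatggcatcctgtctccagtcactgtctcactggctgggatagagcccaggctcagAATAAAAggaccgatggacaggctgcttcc
GATAAAA was found in 5 of the 6 LCE3 promoters, beginning 29 to 31 bases before the start, in 0 of 13 LCE1 promoters and in 3.446% of all 32851 RefSeq promoters of the same length. AATAAAA was found in 9 of the 13 LCE1 promoters, in 2 of the 6 LCE3 promoters and in 8.386% of all.

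The 14 LCE1 genes were low throughout. Their sum was 5.99 and 12.1 TPM at D0, 2.84 and 6.72 TPM at W1, 11.0 and 17.7 TPM at W2, 27.9 and 1.40 TPM at W6, and 23.7 and 15.46 TPM at W12. The 2 W6 libraries lay above and below all others, and the D0 and W1 ranges overlapped. Only 4 of the 14 had a mean of at least 1 TPM. Except in *Lce1m*, between 13.2% and 52.4% of the 31-base words of the LCE1 transcripts occurred in other members, with 37.3% for *Lce1e* and 36.2% for *Lce1g*, so the split between these genes is uncertain. Of the 14, 6 had their highest mean at W6, 4 at W12, 3 at W2 and 1 at D0.

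*Lce1e*, *Lce1f* and *Lce1g* reached the filter through their W12 values alone, so their differences at W12 are a description. *Lce1g* was listed at 0 and at 0.0300 TPM at D0 and was at 0.0689 and 0.0317 TPM at W1, 0.180 and 0.700 TPM at W2, 1.21 TPM and 0 at W6, and 7.39 and 7.16 TPM at W12. Both W12 values were above all others, by 3.03 on the log2 scale against D0 and 2.48 against W6. *Lce1e* was at 7.19 and 3.89 TPM at W12 against 1.95 TPM and 0 at W6 and at most 0.184 TPM at D0, a log2 difference of 2.54 from D0 and 1.88 from W6. *Lce1f*, between them, was at 0.501 and 0.314 TPM at D0, 3.34 TPM and 0 at W6 and 3.21 and 2.73 TPM at W12, so that W6 and W12 overlapped.

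*Lce1m* went the other way. It lies apart from the other LCE1 genes, beyond the LCE3 block, and its transcripts shared 0.926% of their 31-base words with other members. It was at 3.62 and 7.02 TPM at D0, 1.22 and 3.09 TPM at W1, 2.95 and 3.01 TPM at W2, 2.80 TPM and 0 at W6, and 0.190 and 0.384 TPM at W12. It was the 1 member with its highest mean at D0, and *Lce1m* fell by 2.25 on the log2 scale from D0 to W12 (standard error 0.58, adjusted *P* = 0.014). The call was lost without D0 replicate 2 (adjusted *P* = 0.0933), W12 replicate 1 (adjusted *P* = 0.0789) or W12 replicate 2 (adjusted *P* = 0.0575).

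The remaining LCE1 genes did not reach a mean of 1 TPM. *Lce1a1*, *Lce1a2*, *Lce1c*, *Lce1i* and *Lce1l* had means over 1 TPM at W2 and W6, *Lce1j* at W6 and *Lce1d* at W12. *Lce1c* was at 0.147 and 0.497 TPM at D0, 1.77 and 2.39 TPM at W2, 2.91 TPM and 0 at W6, and 0.0290 and 0.124 TPM at W12. *Lce1a2* was at 0.358 and 1.43 TPM at D0, 1.33 and 2.02 TPM at W2, 2.61 TPM and 0 at W6, and 0.0270 and 0.0391 TPM at W12. In both, the W2 values were above W12, unlike in *Lce1e* and *Lce1g*. *Lce1b*, *Lce1h* and *Lce1k* had no timepoint with a mean of 1 TPM. *Lce6a* was between 0.174 and 1.58 TPM and had its lowest mean at W12, 0.38 TPM. *Sprr3*, a gene of oral and oesophageal epithelium, had a value above 0 in W12 replicate 1 alone (0.294 TPM).

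*Crct1* encodes a small cysteine-rich protein and lies between *Lce3f* and *Lce1m*. It was at 4.40 and 5.24 TPM at D0, 4.10 and 4.69 TPM at W1, 11.0 and 10.5 TPM at W2, 38.9 and 7.62 TPM at W6, and 165 and 141 TPM at W12. The W2 libraries were above D0 and W1, the W6 libraries lay on either side of W2, and the W12 libraries were above all others. Its log2 change against D0 was 4.73 at W12 (standard error 0.56, adjusted *P* = 0.000361). The change at W6 (1.68, adjusted *P* = 0.0474) was lost on leaving out any library other than W6 replicate 2 (adjusted *P* between 0.062 and 0.137). Without W6 replicate 1 its size went from 1.68 to 0.57, and in the other cases it was between 1.57 and 1.78. From W6 to W12 *Crct1* rose by 3.05 (adjusted *P* = 0.00789), and this was lost without W12 replicate 1 (adjusted *P* = 0.0691).

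**Figure D3:**
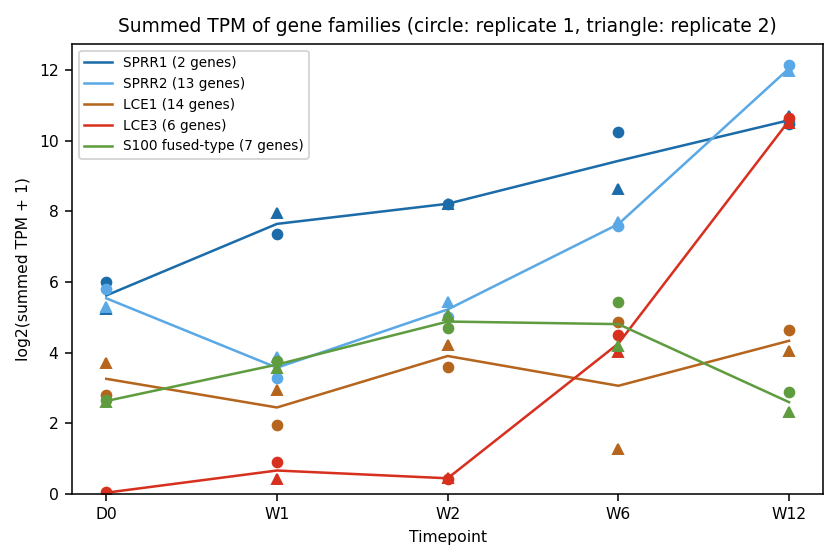
Summed TPM of 5 families, as log2(sum + 1), at the 5 timepoints, with circles for replicate 1, triangles for replicate 2 and lines through the means. SPRR1 climbs at every step, SPRR2 dips at W1 and reaches 4506 and 3990.0 TPM at W12, LCE3 stays near 0 until W2, LCE1 has its 2 W6 libraries far apart, and the S100 fused-type genes return at W12 to a mean of 5.16 TPM, beside 5.19 TPM at D0.

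The 2 W6 libraries differed in these genes. Of the 31 genes tested, 26 were higher in W6 replicate 1 than in replicate 2, against 41.9% of all genes tested. Replicate 1 was higher 3.05-fold for *Sprr1b*, 3.07-fold for *Sprr1a*, 3.03-fold for *Lor*, 2.95-fold for *Flg*, 5.10-fold for *Crct1* and 7.81-fold for *Sprr4*. *Ivl* differed by 1.07-fold, and *Lce3c*, at 11.6 and 9.95 TPM, also differed little, while *Lce3e* was higher in replicate 2. Replicate 2 listed 17 of the 48 genes at 0, among them 13 of the 14 LCE1 genes, and replicate 1 listed 2 at 0. Pearson's correlation between the W6 replicates across the genes tested was 0.958, the lowest of the 5 timepoints, and the others were between 0.964 and 0.988. Genes are not independent replicates, and depth could not be compared.

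**Figure D4:**
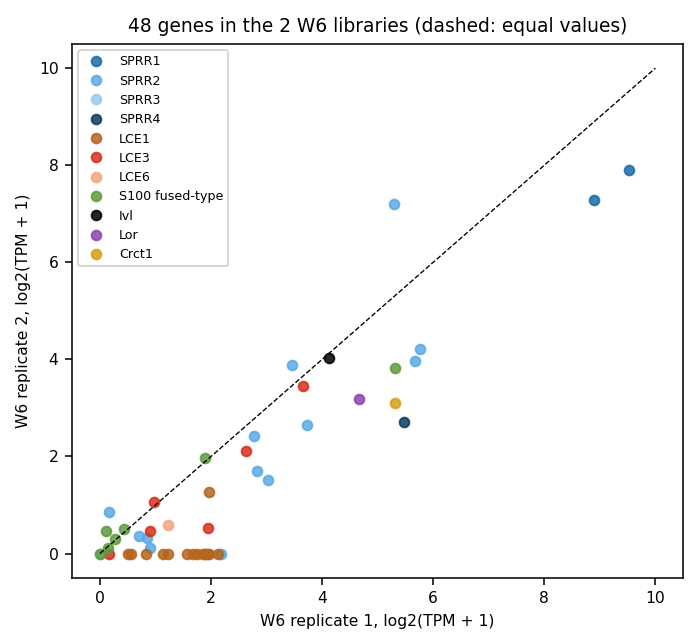
log2(TPM + 1) of the 48 genes in W6 replicate 1 (x axis) and W6 replicate 2 (y axis), coloured by family, with the line of equal values dashed. Most points lie below the line, the LCE1 points lie along the x axis because replicate 2 lists 13 of the 14 at 0, and *Sprr2a2* lies above it.

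The change from W6 to W12 was then set against position. Of the 19 genes that passed the filter without W12, 11 rose at this step (background 6.66%). Of these, 8 lie in the SPRR2 block, which reaches from −357.9 to −141.2 kb relative to the start of *Ivl*, and the other 3, *Lce3c*, *Lce3f* and *Crct1*, lie between 370.8 and 442.0 kb beyond it. *Sprr1b*, *Sprr1a*, *Sprr4* and *Ivl*, between these stretches, were not called. *Lor*, at the start of the region, and *Flg*, at 699.8 kb, fell, while *Lce1m*, at 445.3 kb, and *Tchh*, at 868.6 kb (−0.14, adjusted *P* = 0.799), were not called. The other 12 genes had reached the filter through W12 alone, so their differences at this step are a description. Among them, *Lce1e* and *Lce1g* lie between the stretches.

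**Figure D5:**
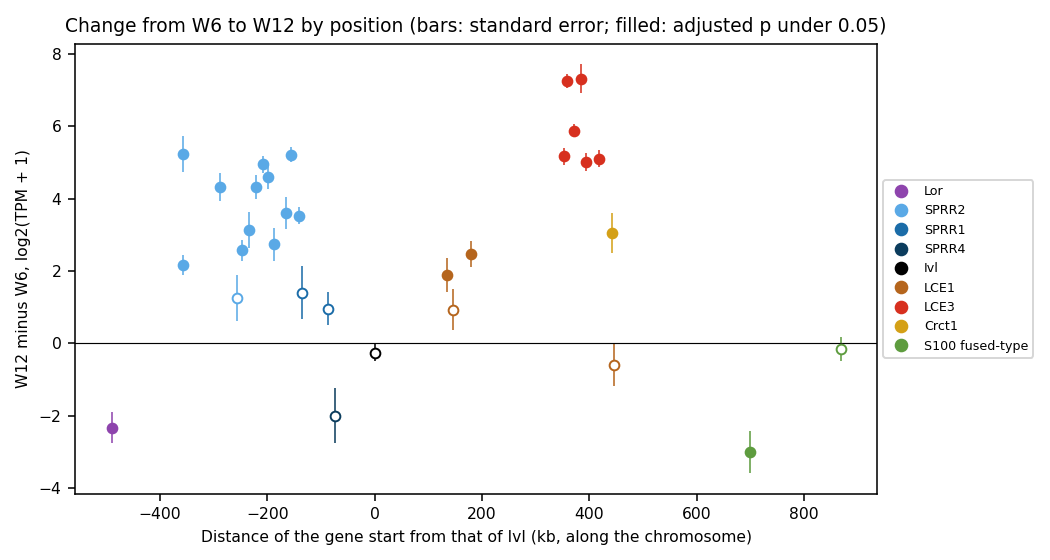
Difference between W12 and W6 in log2(TPM + 1) for the 31 genes tested (y axis, bars are standard errors, filled points passed an adjusted *P* of 0.05) against the distance of each gene start from that of *Ivl* in kb (x axis). The LCE3 points lie between 5.01 and 7.31 and the SPRR2 points between 1.25 and 5.24, while *Lor*, the leftmost point, and *Flg* lie at −2.33 and −3.003 and *Tchh*, the rightmost, at −0.14. Of the 31 genes, 12 reached the filter through W12 alone, and their points are a description.

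Across the 43 members with a RefSeq promoter (250 bases before to 50 after the start), TGANTCA was found in 16, among them *Ivl*, *Lor*, both SPRR1, 7 SPRR2 and 5 of 7 S100 fused-type genes, and in 7.808% of all 32851 promoters. It was found in 0 of 13 LCE1 and 0 of 6 LCE3 promoters, and those of *Sprr2a1*, *Sprr2a2* and *Sprr2a3* held no match either. Of the genes lower at W12, *Lor* held it and *Lce1m* did not. A link between these matches and the changes in TPM was not tested. TATAAA was found in 20 of the 43 and in 13.616% of all. The SOX motif letters AACAAT were found in 7 of the 43 (10.718% of all) and ACAATGG in 1 (3.662% of all). TGTGGT, the RUNX letters, were found in 5 (16.761% of all), GGGTGTGG of KLF factors in 1 (3.562%) and GGGCGTGG in 0 (5.33%). These are matches of letters on either strand and not binding data.

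Genes outside the complex that build or process the envelope were counted from lists that were chosen for their known roles. Of 17 envelope assembly genes, 2 were higher and 1 lower at W1, 2 and 2 at W2, 7 and 2 at W6, and 8 and 4 at W12. The shares of all genes tested that were higher and lower were 5.79% and 4.1% at W1, 9.06% and 6.64% at W2, 18.3% and 14.1% at W6, and 17.9% and 25.1% at W12. The shares of the list that were lower at W6 and W12 were thus near those of all genes. Those that rose at W12 included *Tgm1*, the membrane transglutaminase (log2 change 2.74, adjusted *P* = 0.00123), *Cnfn*, the gene of cornifelin (6.93, adjusted *P* = 0.000104), and *Krtdap* (2.84, adjusted *P* = 0.0075). *Cnfn* went from 4.42 and 4.40 TPM at D0 to 678 and 640.3 TPM at W12. The envelope plakins fell by W12, *Evpl* by 1.82 (adjusted *P* = 0.00216) and *Ppl* by 2.27 on the log2 scale (adjusted *P* = 0.00066). *Ppl* went from 60.8 and 106 TPM at D0 to 17.4 and 14.4 TPM at W12, with no overlap. Both plakin genes were thus lower at W12, as *Lor* was, where *Ivl* was higher.

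Of 14 proteases and modifying enzymes, 11 were tested, of which 2 were higher at W1, 5 at W2 and 8 at W6. At W12, 6 were higher and 1 (*St14*) lower. Among all genes tested 5.79%, 9.06%, 18.3% and 17.9% were higher at these timepoints, and 25.1% were lower at W12. The kallikrein gene *Klk6* was at 1.21 and 0.453 TPM at D0, 337 and 103 TPM at W6 and 134 and 189 TPM at W12, a log2 change of 6.48 at W12 (adjusted *P* = 5.03e-05). *Asprv1*, the protease that acts on profilaggrin, went from 17.7 and 9.13 TPM at D0 to 198 and 141 TPM at W12 (3.61, adjusted *P* = 0.00151). *Casp14* was called at W6 (1.60, adjusted *P* = 0.011) and was at 19.4 and 19.1 TPM at W12 against 25.4 and 9.91 TPM at D0. Of 6 neighbours within the complex that the rule did not take, 3 were tested. *Pglyrp3* was higher at W12 (2.72, adjusted *P* = 0.000407), *Prr9* was higher (2.47, adjusted *P* = 0.00954) and *Pglyrp4* was lower (−2.21, adjusted *P* = 0.019).

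Markers of other keratinocyte states were measured beside these genes. The wound-state keratins *Krt6a*, *Krt6b* and *Krt16* summed to 212 and 215 TPM at D0, 229 and 582 TPM at W1, 250.3 and 354 TPM at W2, 5260.3 and 3148 TPM at W6, and 8308 and 9288 TPM at W12, and all 3 were called higher at W6 and W12 (background 18.3% and 17.9%). They did not move together before: *Krt6a* was called higher at W1 (3.83, adjusted *P* = 0.00192) and W2 (3.78, adjusted *P* = 0.00147), while *Krt16* was called lower at W2 (−2.09, adjusted *P* = 0.003). The sum of the spinous keratins *Krt1*, *Krt10*, *Krt2* and *Krt77* was 2602 and 1324 TPM at D0 and 2152 and 1605 TPM at W12, with overlapping ranges. Of the 3 tested, 0 were called higher and 1, *Krt77*, lower at W12 (−5.83, adjusted *P* = 0.000304), where 17.9% of all genes tested were higher and 25.1% lower. *Cd34*, whose product the sort selected against, was at 0.0614 and 0.383 TPM at D0, 2.66 and 5.04 TPM at W6, and 16.5 and 32.0 TPM at W12. *Lhx2* and *Lgr5*, listed with *Cd34* as hair follicle stem cell markers, were not called at W12 (−0.58, adjusted *P* = 0.204, and 0.52, adjusted *P* = 0.435). The sum of 4 sebocyte markers was 99.0 and 85.9 TPM at D0, 198 and 195 TPM at W1, 432 and 413 TPM at W2, 389 and 308 TPM at W6, and 267 and 344 TPM at W12, and of the 3 tested, 2 were higher and 1 lower at W12. The sum of 4 melanocyte markers was 1.18 and 4.65 TPM at D0, 4.24 and 11.6 TPM at W6, and 12.03 and 8.98 TPM at W12. The part of these keratinocyte states, and of the RNA of other cell types, in the changes of the 48 genes was not tested.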

How the data were processed

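RNA-seq libraries of sorted EpdSCs were analysed, 2 for each of 5 timepoints, labelled as biological replicates. The labels do not say whether replicates came from separate animals, so *P* values measure the spread between these libraries, which may be partly technical. Per the labels and the study's methods, the authors trimmed the reads, quantified them with Salmon (1.4.0) against GENCODE M24 transcripts of GRCm38 with the transgene added, summarised them per gene with Tximport (1.12.3), and deposited TPM values, with low-input libraries for sorted cells. TPM keeps no depth, so no counting interval is given.

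Genes were kept if their TPM averaged 1 or more (13110 of 54332). limma (3.58.1, R 4.3.3) was fitted on log2(TPM + 1) with 1 coefficient per timepoint and a mean-variance trend, and *P* values were Benjamini-Hochberg adjusted over all genes kept, with calls at 0.05. The procedure was tested on simulated data. Python (3.11.15), numpy (2.4.6), pandas (2.3.3) and matplotlib (3.10.9) were used for sums, folds and plots. 96 entries with no symbol stayed in the fit and matched no rule.

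Members and gene lists were chosen with earlier results of these data known. Every member was to be named, with values for those past the filter and, for the others, those with a timepoint mean of at least 1 TPM. Alternatives were a pseudocount of 0.1, a filter of 5 TPM or any value above 0, median-ratio and quantile scaling, no trend, only the 4 libraries compared, the replicate number as a block, and leaving out each library. Promoters (43 of 48 members matched) came from RefSeq, and 31-base words from the reference transcripts. A second deposited table, which was not used, holds the authors' DESeq2 comparison of SOX9-positive and SOX9-negative placode cells (mean normalized counts, log2 fold changes, standard errors, statistics and *P* values). The 4 placode libraries were not analysed here.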

Additional observations from a re-analysis of the deposited data

How the results depend on the processing

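No called change of the 31 genes tested, against D0, from W2 to W6 or from W6 to W12, turned its direction under any alternative. Numbers of genes called, in either direction, changed with single libraries at the early steps: leaving out 1 library gave 2 to 6 genes for W1 against D0, 2 to 8 for W2 against D0, 12 to 24 for W6 against D0, 0 to 2 for W2 against W1 and 6 to 16 for W6 against W2. For W12 against D0 the range was 25 to 28 (over all genes, 5642 calls and 3362 to 6291), and for W12 against W6 it was 20 to 25 (over all genes, 2642 calls, and 761 and 1285 without W12 replicate 1 or 2). With all genes above 0 TPM kept, W1 and W2 against D0 gave 2 and 1 genes, and with only the 4 libraries compared, W1 against D0 gave 1 and W2 against W1 gave 2. Over all genes, the 4 libraries of W2 against W1 gave 80 calls in place of 15. The cause was not tested. Calls that held under every alternative numbered 0 of 4 at W1, 1 of 6 at W2, 11 of 15 at W6 and 6 of 12 from W2 to W6. The 11 include *Lce3c*, *Lce3f*, *Sprr2e*, *Sprr2f* and *Sprr2g*, and the 6 include *Lce3c*, *Lce3f*, *Sprr2f* and *Sprr2g*. These genes passed the filter through W6 and W12, so for them holding at W6 is a description. With a mean of at least 5 TPM asked for, 7 of the 27 genes called at W12 and 5 of the 23 from W6 to W12 were not tested. Of the other 20 and 18, 20 and 15 held. Both sets include *Lce3a*, *Lce3b*, *Lce3d*, *Lce3e* and *Sprr2j-ps*, which passed the filter through W12 alone. The 20 also include the 6 genes that passed it through W6 and W12, so these counts are a description. With the replicate number as a block, the count was 4 at W1, 6 at W2, 14 at W6 (without *Crct1*, adjusted *P* = 0.0508), 27 at W12, 0 for W2 against W1, 11 for W6 against W2, 23 for W12 against W6 and 27 over time. Over all genes the block took the calls from 2137 to 1396 for W6 against W2 and from 15 to 6 for W2 against W1. The numbers do not mark shared animals, and the correlation of same-numbered deviations was between −0.129 and 0.182. A pairing with crossed numbers, chosen after seeing the data, gave 4, 15 and 23 genes for W1 against D0, W6 against D0 and W12 against W6.

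Over all genes, calls at W1 against D0 numbered 1296, but 606 with all genes above 0 TPM and 411 with only the 4 libraries. Those at W6 against D0 numbered 4251 and 1094 with only the 4 libraries, and those at W12 against W6 2642 and 887. Median-ratio scaling moved the median of all genes from W6 to W12 from −0.16 to −0.01 and the split from 873 higher and 1769 lower to 1171 and 957, and the split at W1 from 759 and 537 to 603 and 669. The members were 21 higher and 2 lower, and 2 and 2, under both scalings. Depth is unknown for these libraries, and 2 per timepoint limit the precision.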

Other observations

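Genes of the barrier lipid pathway, whose products coat the cornified envelope, were counted in the same way. Of 11 genes tested, 0 were higher and 1 lower at W1, 0 and 1 at W2, 5 and 2 at W6, and 4 and 1 at W12. Among all genes tested 5.79% and 4.1% were higher and lower at W1, 9.06% and 6.64% at W2, 18.3% and 14.1% at W6, and 17.9% and 25.1% at W12. Those higher at W12 were the lipoxygenase gene *Alox12b* (log2 change 2.23, adjusted *P* = 0.0006), *Sdr9c7* (2.69, adjusted *P* = 0.00115), *Elovl4*, which makes very long chain fatty acids (1.53, adjusted *P* = 0.00279), and *Ugcg*, the glucosylceramide synthase gene (1.88, adjusted *P* = 0.00159). *Smpd1*, an acid sphingomyelinase gene, was lower (−0.81, adjusted *P* = 0.00507). *Alox12b* went from 0.469 and 0.541 TPM at D0 to 5.50 and 6.71 TPM at W12.

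Of 18 transcription factor genes of epidermal differentiation, all tested, 2 were higher and 2 lower at W1 (background 5.79% and 4.1%). At W2, 1 was higher and 6 were lower (background 9.06% and 6.64%). The numbers were 3 and 7 at W6 (background 18.3% and 14.1%), and 2 and 9 at W12 (background 17.9% and 25.1%). *Ehf* rose by 2.45 (standard error 0.17, adjusted *P* = 2.48e-05) and *Prdm1* by 2.46 (adjusted *P* = 0.00199) at W12. *Gata3* fell by 3.35 (adjusted *P* = 8.24e-05), *Klf4* fell by 2.45 (adjusted *P* = 0.000352), *Pou2f3* fell by 2.42 and *Trp63*, the gene of the basal factor p63, fell by 1.83 (adjusted *P* = 0.00231). *Grhl3* was higher at W6 (1.40, adjusted *P* = 0.0408).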
